A study of Homo sapiens with 24 samples.

Results

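After transcription was blocked in HepG2 cells with actinomycin D, 150 transcripts were lost more steeply between 3 h and 6 h than between 0 h and 3 h in the siControl libraries. They were the 150 lowest of 7675 eligible genes, out of 58676 genes counted. For each gene, the count was divided by the library's sum of ERCC reads (synthetic spike-in RNA), and the 2 siControl replicates were averaged. A gene was eligible with at least 5 CPM (reads scaled to a fixed gene total per library) at 0 h and a 6 h level of at most 80% of 0 h. The ranking measure was log2(6 h/3 h) minus log2(3 h/0 h), with 0.5 added to the counts, and symbols starting MT-, ZNF or LINC were passed over. A negative value means that the second interval was steeper than the first. The name delayed loss did not describe most of these genes. In siControl their median level had already fallen to 62.7% of 0 h at 3 h (range 24.9% to 111%), 69 stood under 60%, and 34 stood at 90% or more. At 6 h the median was 26.0% (range 4.07% to 79.9%), with 57 genes under 20%. They are therefore called late-steepening transcripts here, after their rule. Because siControl chose them, all siControl values are descriptions, and every test used the 18 knockdown libraries, which the rule did not read.

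HepG2 is an established human liver cancer line. Cells received AllStars negative control siRNA (siControl), or siRNA to IGF2BP1 (siIGF2BP1), IGF2BP2 (siIGF2BP2) or IGF2BP3 (siIGF2BP3). Each of these 4 conditions was collected with actinomycin D at 5 µg/ml for 0, 3 or 6 h. The 12 groups held 2 replicates each. All groups shared the transfection and the drug protocol, and the 0 h cells were the ones without drug exposure. Nothing in the labels ties the replicates to separate transfections, and the study calls them independent without naming transfections. By its methods, each transfected plate was re-seeded into smaller plates, so samples of different times may share a transfection. The main tests did not model this. P-values therefore measure the spread between these samples, which may be technical.

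Actinomycin D binds DNA and stops RNA polymerases, so the fall of an mRNA afterwards is read as its decay. Decay of most human mRNAs starts with shortening of the poly(A) tail, followed by removal of the cap or digestion from the 3' end by the exosome. A transcript with 1 constant rate loses the same log2 amount in each interval and scores 0 on the measure. IGF2BP1, IGF2BP2 and IGF2BP3 are related RNA-binding proteins that bind many mRNAs and are known mainly for slowing their decay. The study that made these libraries proposes that IGF2BP1 and IGF2BP3 instead speed the decay of mRNAs with internal m7G, a methylated guanosine. Polyadenylated RNA was selected here, so loss of the tail and loss of the whole molecule cannot be told apart. The spike-in was added per amount of total RNA, and in such bulk samples fewer cells and less RNA per cell cannot be told apart either.

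The libraries held 31843248 to 74252042 reads in genes and 50889 to 119088 ERCC reads. The targeted genes matched the labels: IGF2BP1 was at 102 to 148 CPM after its own knockdown and at 651 to 781 CPM elsewhere, IGF2BP2 at 43.6 to 50.8 against 188 to 229 CPM, and IGF2BP3 at 30.9 to 40.3 against 109 to 149.9 CPM. All 10 hepatocyte markers were detected, APOB at 2.98e+04 to 4.24e+04 CPM and TTR at 38.6 to 77.6 CPM. Of 10 markers of other cell types, PTPRC, KDR, STAB2 and COL3A1 stayed at or below 0.16 CPM, whereas PDGFRB was at 4.7 to 13 CPM and ACTA2 at 29.1 to 42.6 CPM. Among the knockdown groups, the ratio of gene to ERCC reads differed most between replicates in siIGF2BP2 at 6 h. It was 70.6% of its 0 h mean in replicate 1 and 81.3% in replicate 2. In siControl at 0 h it was 106.7% and 93.3%. Gene by gene, the replicates differed most in siControl at 6 h (chi-square divided by its degrees of freedom 7.83, against 3.31 in siIGF2BP2 at 6 h). Some counts of members that rest on 6 h calls are given below also without siIGF2BP2 6 h replicate 2. This alternative was chosen after seeing the data.

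The 10 genes with the lowest siControl values were DOLK (-1.12), TTC30A (-1.06), CXXC5 (-1.04), POP7 (-1.03), HSPA8 (-1.01), FEN1 (-1.001), TFPT (-0.99), LEO1 (-0.96), TMEM115 (-0.95) and CITED4 (-0.93). The median of the 150 was -0.58 and that of the other eligible genes 0.01. The boundary was not marked by a gap. MRPL39, PLEKHG6 and ACOT9 stood just inside at -0.50 each, and TMEM131L, CHMP6 and SYTL1 just outside, also at -0.50. The values differed between siControl replicates: the median was -0.48 from replicate 1 alone and -0.73 from replicate 2 alone, while that of all eligible genes moved from 0.14 to -0.14. In replicate 1 alone 148 of the 150 were below 0, and in replicate 2 alone 149. Their 0 h level in siControl ran from 5.04 to 2757 CPM, with a median of 21.8 CPM against 34.7 CPM for the other eligible genes.

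The members were also lower than the other eligible genes in knockdown cells. At 3 h the median level of the 150 genes was 63.8% of 0 h in siIGF2BP1, 59.6% in siIGF2BP2 and 63.4% in siIGF2BP3. Corresponding medians of the other 7525 eligible genes were 72.3%, 67.0% and 72.0%. At 6 h the members were at 32.8%, 32.2% and 34.9%, while the others were at 54.3%, 53.3% and 56.1%. The members thus lay below the others at both times, and the distance was wider at 6 h in each condition. Replicate medians of the members at 6 h were 33.2% and 31.9% in siIGF2BP1, 29.6% and 34.8% in siIGF2BP2, and 36.1% and 33.3% in siIGF2BP3.

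**Figure D1:**
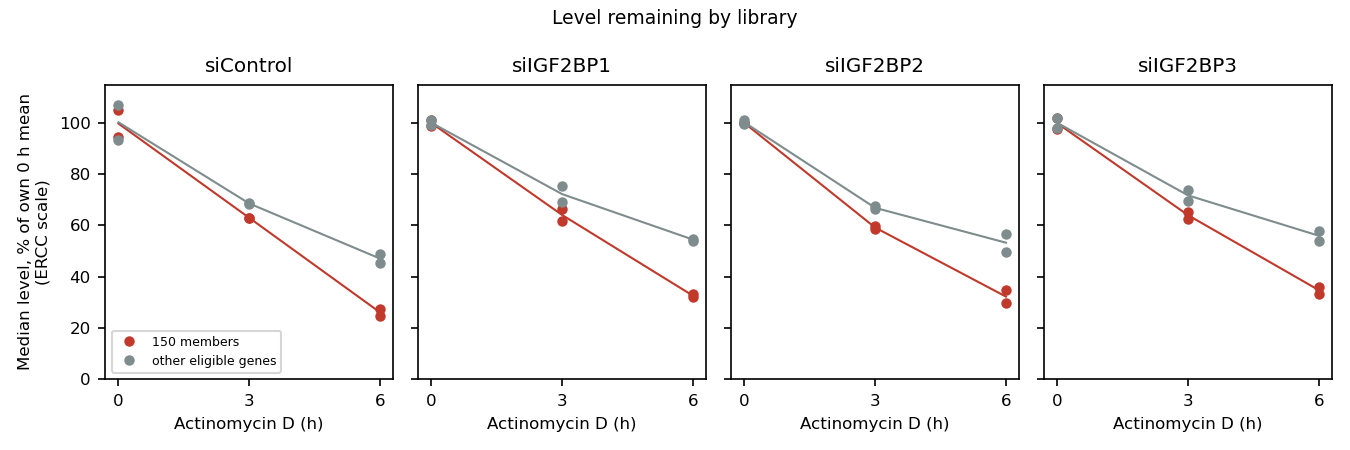
Median level, in % of the condition's own 0 h mean on the ERCC scale, against hours of actinomycin D, for the 150 late-steepening transcripts (red) and the other 7525 eligible genes (grey). Points are single libraries and lines join the means of 2 replicates. In siControl, which chose the genes, the members were at 63.0% and 62.9% at 3 h and at 27.5% and 24.6% at 6 h, and in each knockdown they also ended below the other genes.

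The shape of loss was tested in the knockdown libraries as the log2 change from 3 h to 6 h minus that from 0 h to 3 h, averaged over the 3 knockdowns and called curvature below. Of the 150 genes, 72 had negative curvature past an edgeR adjusted p of 0.05, a share of 48.0%, where 2.53% of all 13018 genes tested were called in that direction. One gene, BORCS6, was called in the positive direction, where the share over all genes was 26.0%. The median curvature of the members was -0.29 (quartiles -0.43 and -0.14), against 0.11 for all genes and 0.14 for the other eligible genes. The called genes ran from -0.995 to -0.21. All 72 were negative in each of the 3 knockdowns, as were 321 of the 330 genes called over all genes. Called or not, 107 of the 150 were (71.3%), beside 9.81% of all genes. Without siIGF2BP2 6 h replicate 2, 112 were, beside 16.7%. The values were closer to 0 than in siControl, which was read in choosing the genes.

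**Figure D2:**
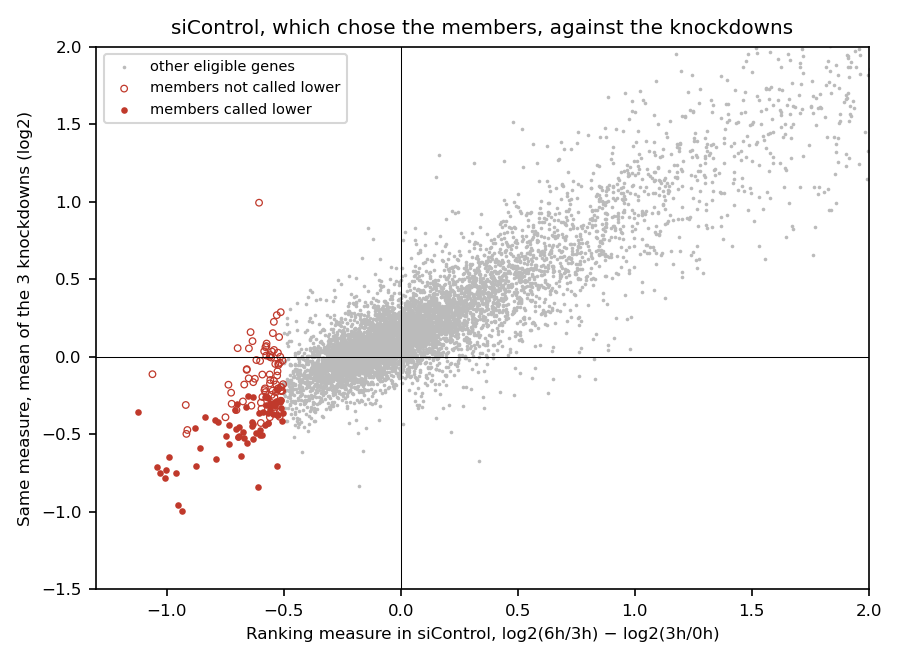
Each point is an eligible gene, with the ranking measure in siControl on the x axis and the mean curvature of the 3 knockdowns on the y axis, both in log2 units. Filled red points are the 72 members called negative, open red points the other members, and grey points the remaining eligible genes, of which 214 lie outside the axes. Members sit at -0.50 or less on the x axis by choice, and 130 of them lie below 0 on the y axis.

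Within single knockdowns, 36 members were called negative in siIGF2BP1, where 0.760% of all genes were. In siIGF2BP2 the count was 24, beside 0.315% of all genes. In siIGF2BP3 it was 30, beside 1.01%. The counts rested in part on single libraries. Without replicate 2 of siIGF2BP2 at 6 h, the library named above, more members were called for the mean of the 3 knockdowns and in siIGF2BP2 alone. For the mean, more of all genes were called as well. Only 11 were called in siIGF2BP1 without its 3 h replicate 1. In siIGF2BP2, 7 were called without 3 h replicate 1 and 11 without 3 h replicate 2. In siIGF2BP3, 17 were called without 0 h replicate 1, 11 without 3 h replicate 2 and 19 without 6 h replicate 2. The mean of the 3 stayed between 60 and 85 in all 18 such fits.

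Loss was under way in both intervals. From 0 h to 3 h, 131 members fell, a share of 87.3% beside 72.2% of all genes and 93.6% of the other eligible genes. A rise was called for 1 member, beside 3.43% of all genes. From 3 h to 6 h, 140 fell (93.3%), beside 59.4% of all genes and 83.1% of the other eligible genes. None passed the edgeR test upward, adjusted or not, beside 2.77% of all genes (the highest member was LRMDA at 0.02). The median log2 change of the members was -0.69 in the first interval and -0.92 in the second, against -0.40 and -0.26 over all genes. Over the other eligible genes it was -0.50 and -0.35. Of the 72 members called for curvature, 68 fell in both intervals. Thus 45.3% of the members were called in all 3 tests, beside 1.51% of all genes. Among genes called for curvature, 196 of 330 over all genes and 119 of 153 other eligible genes fell in both intervals. Without siIGF2BP2 6 h replicate 2, more members were called from 3 h to 6 h and in all 3 tests, and so were more of all genes. In the fit of all 18 libraries the remaining 4 of the 72 members, SNRNP70, PDLIM7, ACTA1 and NOC4L, were called lower in the second interval and not in the first. All of these counts depend on the spike-in scale. With TMM, which sets the typical gene to no change, the median first-interval change of all genes moved from -0.40 to 0.00 and that of the second from -0.26 to 0.00, and 91 and 121 members were called lower, beside 40.3% and 33.4% of all genes. On that scale 118 members were called for negative curvature, beside 23.2% of all genes.

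HSPA8 encodes the constitutive Hsc70 chaperone and was at 2481 to 2703 CPM at 0 h in the knockdowns. At 3 h it was at 68.9% and 63.1% of its 0 h level in siIGF2BP1, 55.4% and 56.2% in siIGF2BP2, and 54.6% and 62.0% in siIGF2BP3. At 6 h it was at 24.2% and 22.4%, 17.4% and 19.6%, and 20.7% and 21.1% in the same order. Every 6 h library was far below every 3 h library. Its log2 change was -0.74 (SE 0.0427) over the first interval and -1.52 (SE 0.0435) over the second, a curvature of -0.79 (SE 0.0726, edgeR adjusted p = 9.67e-26). In siControl it was at 63.2% and 61.9%, then at 20.4% and 18.6%. HSPA8 has processed pseudogenes of near-identical sequence, and how the counting treated reads that match several places was not given in the sources used here.

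LEO1 is a subunit of the PAF1 complex, which travels with elongating RNA polymerase II. Over the 6 knockdown libraries of each time, it was at 51.3% to 57.3% of its 0 h level at 3 h and at 14.4% to 19.2% at 6 h. Its curvature was -0.75 (SE 0.0824, edgeR adjusted p = 1.78e-18), with -1.04 in siIGF2BP1, -0.55 in siIGF2BP2 and -0.66 in siIGF2BP3. FEN1, the flap endonuclease of DNA replication, stood at 45.7% to 53.1% at 3 h and at 12.2% to 15.1% at 6 h. The curvature of FEN1 was -0.73 (SE 0.0862, edgeR adjusted p = 3.76e-16), and it ran from -0.82 to -0.68 over the 3 knockdowns. POP7, a protein of the RNase P and RNase MRP ribonucleases, was already at 29.8% to 35.6% at 3 h and reached 5.63% to 8.46% at 6 h. Its curvature of -0.75 (SE 0.106, edgeR adjusted p = 2.82e-11) stood beside a first-interval change of -1.58.

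The most negative curvatures belonged to CITED4 and TMEM115. CITED4 encodes a partner of the CBP and p300 coactivators and lies on chromosome 1 of hg38 (40861054 to 40862363, minus strand, a single exon). It was at 7.35 to 9.14 CPM at 0 h in the knockdowns, so few reads remained later. Its 6 h levels were 6.42% and 5.32% in siIGF2BP1, 3.77% and 2.81% in siIGF2BP2, and 6.43% and 3.42% in siIGF2BP3, after 25.1% to 34.9% at 3 h. The curvature was -0.995 (SE 0.237, edgeR adjusted p = 0.000182), and its siControl replicates differed widely, at 6.62% and 1.65% at 6 h. TMEM115, a membrane protein of the Golgi, was at 32.0% to 37.9% at 3 h and at 4.83% to 6.85% at 6 h. Its curvature was -0.96 (SE 0.128, edgeR adjusted p = 1.30e-12).

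ORAI1, the pore of the store-operated calcium channel, had 28.6% to 49.3% of its 0 h level at 3 h and 6.42% to 12.6% at 6 h, with a curvature of -0.84 (SE 0.179, edgeR adjusted p = 2.11e-05). TNFRSF1A, the main receptor for tumour necrosis factor, was at 25.8% to 29.3% at 3 h and 4.22% to 6.04% at 6 h. Its curvature was -0.71 (SE 0.110, edgeR adjusted p = 1.64e-09), and the siIGF2BP3 libraries overlapped those of the other knockdowns at both times. CXXC5, a CXXC zinc finger protein that restrains Wnt signalling, was at 36.5% to 48.9% and then at 8.97% to 12.6%, with a curvature of -0.71 (SE 0.0961, edgeR adjusted p = 2.39e-12). The rest of the 12 most negative called genes were MFSD5 (-0.70), a major facilitator family transporter, SAP30 (-0.66), a subunit of the Sin3 histone deacetylase complex, and TFPT (-0.65), a subunit of the INO80 chromatin remodeller.

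**Figure D3:**
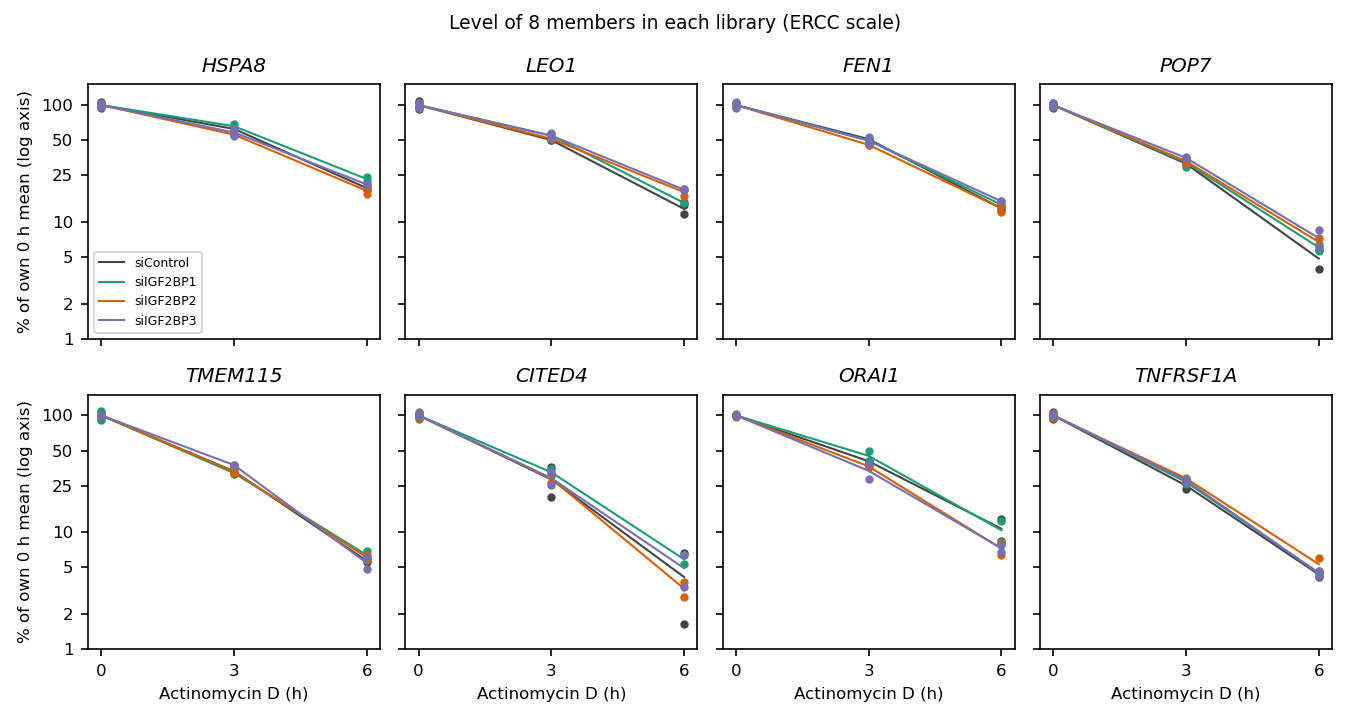
Level in each library as % of the condition's own 0 h mean (ERCC scale, log axis) against hours of actinomycin D, for 8 members. Points are single libraries and lines join the means of 2 replicates, coloured by condition. Each line bends downward after 3 h. HSPA8 ended at 17.4% to 24.2% and TNFRSF1A at 4.16% to 6.04%.

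Among the 10 lowest genes in siControl and the 12 most negative called genes, TTC30A and TNFRSF1A hold a match to TGTANATA in the 3' UTR of the canonical transcript, read on the sense strand. This 8-base word is the core that Pumilio proteins, known repressors and destabilisers of mRNA, recognise. The 28 bases around each match are shown 5' to 3' from hg38, with the match in capitals, because this word is described for all members below. All of them lie on the minus strand: TTC30A at chr2:177613063-177613090 (base 3624 of a 3' UTR of 3705 bases) and TNFRSF1A at chr12:6329161-6329188 (base 134 of 541) and chr12:6328782-6328809 (base 513).
TTC30A: tttctgacaaTGTATATAagatctataa
TNFRSF1A, upstream match: aacccctcgaTGTACATAgcttttctca
TNFRSF1A, downstream match: tgtggactttTGTACATAcactaaaatt
The 2 genes behaved differently. TNFRSF1A was called as above, whereas TTC30A, an intraflagellar transport protein, had a curvature of -0.11 (edgeR adjusted p = 0.803), with 0.12, 0.31 and -0.76 in the 3 knockdowns. A match is a string of letters and no evidence of binding.

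Not all of the lowest-ranked genes held up. DOLK, the dolichol kinase of protein glycosylation, was first in siControl at -1.12 but had a curvature of -0.36 in the knockdowns (edgeR adjusted p = 0.0250). Its call was lost with DESeq2 (adjusted p = 0.0503), with no filter (edgeR adjusted p = 0.0695) and in 5 of the 18 fits that left out 1 library. BORCS6, a subunit of the BORC complex that positions lysosomes, went the other way. It fell to 19.2% and 15.4% of its 0 h level at 3 h in siIGF2BP1, to 13.8% and 16.2% in siIGF2BP2, and to 23.6% and 24.7% in siIGF2BP3, against 26.8% and 22.7% in siControl. At 6 h it was at 6.94% and 3.83%, 3.15% and 7.16%, and 13.1% and 8.49%. Its curvature was 0.99 (SE 0.297, edgeR adjusted p = 0.00409), and the call was lost without siIGF2BP2 6 h replicate 2 (adjusted p = 0.0753). SHPK, the sedoheptulose kinase, and GABARAPL1, an autophagy protein of the ATG8 family, came next at 0.29 (edgeR adjusted p = 0.245) and 0.27 (edgeR adjusted p = 0.311).

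No difference in curvature between the 3 knockdowns passed the test for a member. The edgeR test for a difference among them called 0 members, beside 0.0922% of all genes, and DESeq2 also called 0. At an unadjusted p under 0.05 there were 5 members. The median curvature was -0.34 in siIGF2BP1, -0.21 in siIGF2BP2 and -0.29 in siIGF2BP3, and the medians of all genes were 0.03, 0.24 and 0.08. The order of the members' medians thus followed the order of all genes. A total of 16 members were called in each knockdown alone, beside 0.154% of all genes, and 24 without siIGF2BP2 6 h replicate 2, beside 0.369%. The 16 included CXXC5, POP7, HSPA8, FEN1, LEO1, TMEM115, TNFRSF1A, CDCA8, PITPNB, SQLE, PLK1, PNMA1, SF3A2, TOMM70 and MAGEF1.

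**Figure D4:**
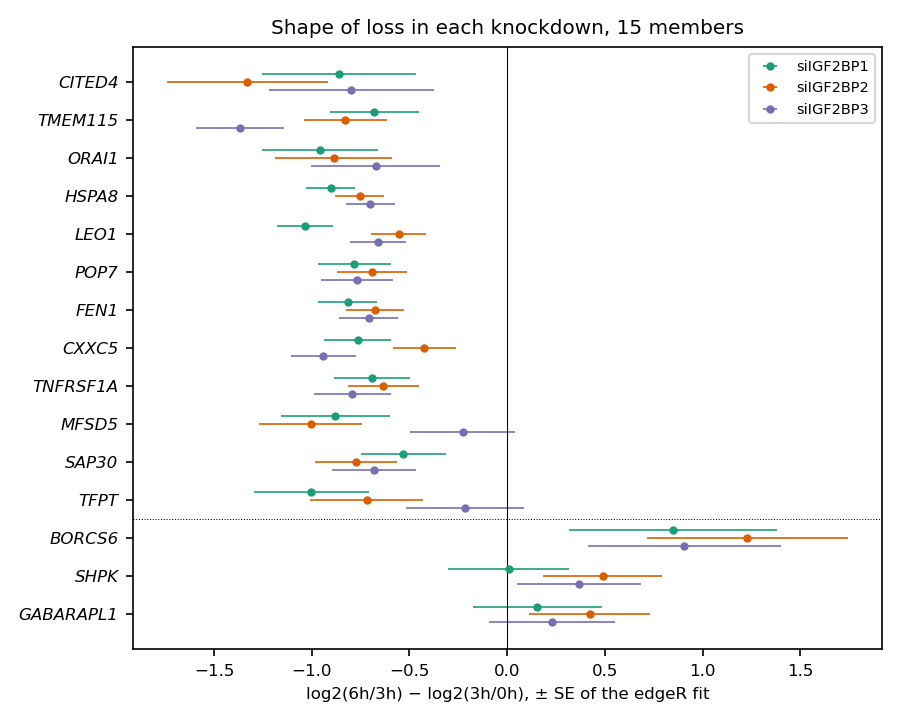
Curvature, log2(6 h/3 h) minus log2(3 h/0 h), with its standard error from the edgeR fit, for the 12 most negative called members and, under the dotted line, the 3 most positive members, in each knockdown. CITED4 ran from -1.33 to -0.80 and LEO1 from -1.04 to -0.55 over the 3 knockdowns, and BORCS6 was above 0 in each.

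The level before the drug was compared as well. Against siControl, with no test, the median log2 ratio of the members at 0 h was 0.02 in siIGF2BP1, 0.06 in siIGF2BP2 and 0.06 in siIGF2BP3, and single genes ran from -0.95 to 0.78. Among the 3 knockdowns, 27 members differed at 0 h on the TMM scale, a share of 18% where 23.8% of all genes did. MSH6, a mismatch repair protein, was at 197 and 195 CPM in siIGF2BP1, 214 and 208 CPM in siIGF2BP2 and 227 and 239 CPM in siIGF2BP3, beside 216 and 217 CPM in siControl. Both siIGF2BP1 libraries lay below those of the other knockdowns. The count of 27 dropped to 17 without siIGF2BP2 0 h replicate 1.

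The members were also read against 40 lists of pathways and name families. The pathway lists do not hold every gene of their subject, so each count of members is a count within the list. Among 72 eligible splicing factors, 3 were members, and all 3 were called for curvature. These were SF3A2 of the U2 snRNP (-0.50), HNRNPF (-0.37) and SNRNP70 of the U1 snRNP (-0.29). SNRNP70 was at 87.7% to 103% of its 0 h level at 3 h and at 63.2% to 81.7% at 6 h over the knockdowns, and it was called lower in the second interval and not in the first. Of all 85 splicing factors tested, 4 were called negative and 20 positive, with a median of 0.03. Ribosome biogenesis held 5 members among 86 eligible genes: NIFK (-0.38), GNL3 (-0.28) and NOC4L (-0.42), which were called, and DDX10 (-0.20, edgeR adjusted p = 0.0648) and IMP3 (-0.22, edgeR adjusted p = 0.118), which were not. Of the 92 tested in that list, 7 were called negative and 21 positive. The mRNA decay machinery held 2 members among 68, both exosome subunits and both called: EXOSC9 at -0.36 (edgeR adjusted p = 0.000219) and EXOSC10 at -0.31 (edgeR adjusted p = 0.000516). Of the 74 decay genes tested, 4 were called negative and 31 positive.

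The lists of mitosis, replication and repair genes and of kinesins each held 1 member. They do not cover all such members: FEN1, described above, is not in the replication list. PLK1, the mitotic kinase, was called at -0.52 (SE 0.0771, edgeR adjusted p = 2.82e-10), and it was at 50.02% to 58.9% of its 0 h level at 3 h and 17.8% to 22.9% at 6 h. GINS3 of the replicative helicase was called at -0.52, MSH6 at -0.30 and the kinesin KIF22 at -0.26. Of the lists they come from, 4 of 70 mitosis genes, 2 of 56 replication genes, 1 of 63 repair genes and 3 of 35 kinesins tested were called negative, beside 2.53% of all genes. More were called positive in each: 20 mitosis genes, 13 replication genes, 23 repair genes and 6 kinesins, beside 26.0% of all genes. In signalling, LGR4, a receptor for R-spondins, was called at -0.51. Of the 56 genes tested in its list, 1 was called negative and 33 positive. VLDLR in the stress response list (-0.30, edgeR adjusted p = 0.185) and DUSP8, a MAPK phosphatase (-0.37, edgeR adjusted p = 0.157), were not called. In the list of DUSP8, 31 of 36 genes tested were called positive and the median was 2.26. The 1 gene called negative there was not a member. KAT5 (-0.18) and MARCHF8 (0.10), in the chromatin and ubiquitin lists, were not called.

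Metabolic and organelle genes followed. SQLE, squalene epoxidase of cholesterol synthesis, was called at -0.56 (SE 0.0785, edgeR adjusted p = 1.00e-11) and was at 54.6% to 61.7% at 3 h and 19.2% to 24.7% at 6 h. HSD17B7, also a sterol synthesis enzyme, was at -0.22 (edgeR adjusted p = 0.208). MRPL36 was called at -0.38 and MRPL39 was not (-0.03). Of the 5 members with symbols starting TMEM among 87 eligible, TMEM115 and TMEM185B were called. The calls of TMEM185B and MRPL36 were lost in 3 and 1 of the 18 fits that left out 1 library. That of TMEM185B was also lost with no filter (edgeR adjusted p = 0.0503). SLC25A12, SLC51B and PSMG2 were not called. On the TMM and library size scales, DDX10, IMP3, VLDLR, DUSP8, KAT5, HSD17B7, SLC25A12, SLC51B and PSMG2 were called negative too (edgeR adjusted p up to 0.0241 and 0.0289). DDX10 and SLC51B were also called in 5 each of the 18 fits that left out 1 library. Members made up 1.95% of the eligible genes, so a short list would hold few. The lists were also incomplete: the member GABARAPL1, an autophagy protein, is not in the trafficking and autophagy list. Absence from a list therefore does not mean that no member has that function. No member came from the lists of p53 targets, hepatocyte transcription factors, plasma proteins (9 eligible), trafficking and autophagy, nuclear pore, circadian clock, hepatocyte lineage markers or other cell type markers (2 eligible each), nor from the families named MRPS, NDUF (10 eligible), RPL or RPS (14 eligible), CEP, KLHL, FBX, WDR, CCDC, SNHG or USP. The 14 short-lived control transcripts had the opposite shape, with 14 of 14 called positive and a median of 3.38, and the 16 long-lived ones had a median of -0.02.

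A total of 19 members (12.7%) were not called lower from 0 h to 3 h in the knockdowns, beside 27.8% of all genes and 6.42% of the other eligible genes. Of these 19, 14 were called lower from 3 h to 6 h. This pattern was thus found in 9.33% of members, 3.94% of all genes and 3.34% of the other eligible genes. Without siIGF2BP2 6 h replicate 2 both member counts were lower, while the share of all genes with the pattern was higher. PDLIM7, a PDZ and LIM domain protein of the actin cytoskeleton, had a first change of 0.02 (SE 0.0522) and a second of -0.23 (SE 0.0525). HSPBP1, a nucleotide exchange factor for Hsp70, had 0.03 and then -0.19, and its curvature was not called (edgeR adjusted p = 0.0594). NOC4L, a nucleolar factor of the small ribosomal subunit, had -0.11 and then -0.53. MEGF6 was the member that rose over the first interval, by 0.22 (edgeR adjusted p = 0.0206). It was at 96.7% to 133% of its 0 h level at 3 h in the knockdowns and at 92.6% to 118% at 6 h, whereas its siControl replicates were at 87.4% and 66.3% at 6 h.

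The transcripts had features that the rule did not use. In canonical GENCODE transcripts the median spliced length was 2080 bases against 3779 in the other eligible genes, and the median 3' UTR 537.5 against 1637 bases. Coding lengths differed less, at 1125 against 1545 bases, as did 5' UTRs, at 135 against 150 bases. The median number of exons was 7.5 against 10, and introns summed to 1.21e+04 against 3.02e+04 bases. There were 13 single-exon members (8.67%), against 2.34% of the other eligible genes, and they included DOLK, TTC30A, CITED4, PNMA1, MAGEF1 and BORCS6. GC content had a median of 53.5% against 46.8%. These are descriptions of a list chosen on its values, with no test.

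**Figure D5:**
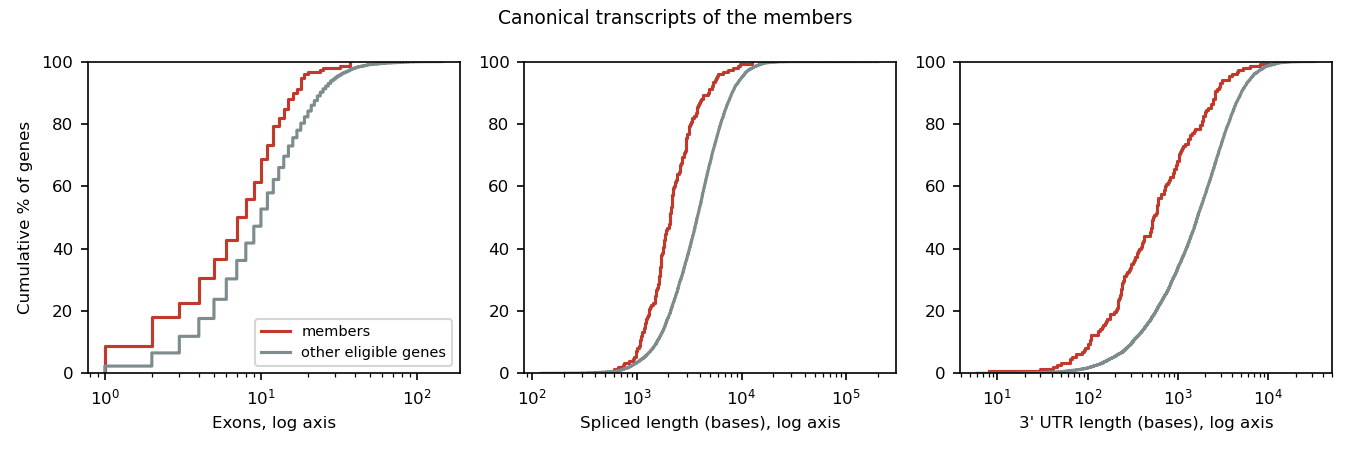
Cumulative % of genes (y axis) by number of exons, spliced length and 3' UTR length of the canonical transcript (x axes, log scale), for the 150 members (red) and the other eligible genes (grey). The red curves lie to the left of the grey ones, with medians of 7.5 against 10 exons, 2080 against 3779 bases and 537.5 against 1637 bases.

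When eligible genes were divided into 4 equal classes by 3' UTR length, 85 of the 148 members with a 3' UTR fell in the shortest (up to 691.5 bases), and 31, 23 and 9 in the following ones. Among eligible genes that were not members, 4.05% of the shortest class were called negative in the knockdowns and 1.37% of the longest, with median curvatures of 0.08 and 0.18. Members called in the knockdowns had a median 3' UTR of 415 bases and those not called 628 bases, but the called share of members had no order over the 4 classes (54.1%, 48.4%, 26.1% and 55.6%, shortest first). Their exons (7.5 and 7.5) and spliced lengths (2094 and 2052 bases) were close. The 176 single-exon eligible genes that were not members had a median curvature of 0.33, and 6.25% were called negative, beside 2.03% of all other eligible genes. Of the 13 single-exon members, 9 were called.

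Short sequence words of the 3' UTR were counted on the sense strand. ATTTA, the core of AU-rich elements, was in 54.7% of members and 79.98% of the other eligible genes. The longer TATTTAT, each of which contains ATTTA, was in 18.9% against 41.6%. TGTANATA was in 29.1% against 36.7%. The members' 3' UTRs are short, so the words were also counted per kb. ATTTA occurred 1.92 against 2.37 times per kb, TATTTAT 0.273 against 0.335, and TGTANATA 0.403 against 0.257. Per base, pooled over all 3' UTRs of a set, AU-rich words were thus sparser in members and the Pumilio word denser. A long 3' UTR weighs heavily in such a pool: DCUN1D5, at 1.167e+04 bases, held 9 TATTTAT and 41 ATTTA matches. Whether the members' higher GC content (53.5% against 46.8%) accounts for the difference in words was not tested.

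A few members are uncertain because their sequence is shared. SMN2 has the near-identical copy SMN1, and TIMM23 and FRG1 have close copies in the genome. ACTA1 is similar to the other actins. TIMM23 (-0.30), FRG1 (-0.42) and ACTA1 (-0.26) were among the 72 called genes, and SMN2 (0.23) was not.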

How the data were processed

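RNA-seq was made from 24 HepG2 libraries. Per the labels and the study's methods, the authors added ERCC spike-ins at 0.02 µl per µg total RNA, selected polyadenylated RNA, made stranded libraries and sequenced 100 bp single-end reads. The submitters' processing notes name Trimmomatic 0.39, HISAT2 2.1.0 and hg38, and genes were counted with HTSeq on GENCODE. The deposited values are raw read counts, not normalized. HTSeq summary rows (13.6% to 17.1% of each library) and 45 Y copies of pseudoautosomal genes were left out. Spike-in sums carry a counting CV of at most 0.443%. Libraries of METTL1 knockdown were not analysed here.

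The counts were fitted with edgeR 4.0.16 in R 4.3.3 by the quasi-likelihood test (9 knockdown groups, 18 libraries, scale from ERCC sums, a minimum of 1 CPM in 2 or more libraries, 2-sided). P-values were adjusted by Benjamini-Hochberg over all 13018 genes, with a threshold of 0.05. The 0 h level used TMM. DESeq2 1.42.0, other scales, filters and samples, a replicate block and each library left out in turn were the alternatives. The scripts were tested on simulated data. Replicates differed by more than counting noise (their chi-square divided by its degrees of freedom was 3.17 to 7.83). Symbols were matched for 58207 identifiers and not for 469. Transcript features came from GENCODE release 44, a later release than the authors', on hg38. Tables were handled in Python 3.11.15 with pandas 2.3.3.

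The members and the gene lists were chosen with earlier results of these data known. Genes are named as the 10 lowest in siControl, the 12 most negative among those called in the knockdowns, the 3 most positive, up to 4 per list by siControl 0 h CPM, the 3 genes on either side of the boundary, the 3 with the lowest adjusted p for the 0 h level, and the targeted genes. Genes named for their overlap of calls, for shared sequence, for the first interval or in the closing section were chosen after their values were seen. A few genes that these rules name are not reported here.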

Additional observations from a re-analysis of the deposited data

Results flagged for a closer look

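The 0 h level of 27 members differed among the 3 knockdowns (edgeR adjusted p under 0.05), in a comparison in which 23.8% of all genes did. In the test of the difference itself SRARP (adjusted p = 0.000116) and MSH6 (adjusted p = 0.000145) were among the lowest. Against siIGF2BP1 the log2 level of MSH6 was 0.08 higher in siIGF2BP2 and 0.24 higher in siIGF2BP3. SRARP, a gene at low level, was at 3.56 and 2.88 CPM in siIGF2BP1, 6.64 and 7.28 CPM in siIGF2BP2 and 4.46 and 5.86 CPM in siIGF2BP3, beside 5.11 and 5.64 CPM in siControl.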

How the results depend on the processing

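The spike-in scale mattered most. With TMM, 118 members were called for the mean curvature (23.2% of all genes), and 71, 84 and 69 in siIGF2BP1, siIGF2BP2 and siIGF2BP3 (9.20%, 11.1% and 10.7% of all genes). With library size the counts were 116, 68, 84 and 66 (21.2%, 7.27%, 10.5% and 9.36%). On both scales 13 named members gained a negative call. TMM moved the median curvature of all genes from 0.11 to -0.03, and 143 members lay below that median on both scales. Leaving out 1 library gave 60 to 85 calls for the mean, 11 to 53 in siIGF2BP1, 7 to 42 in siIGF2BP2, 11 to 41 in siIGF2BP3, 125 to 134 for 0 h to 3 h, 135 to 141 for 3 h to 6 h, 0 for the difference among knockdowns and 17 to 30 for the 0 h level. DESeq2 called 70 for the mean, no filter 63, and all 24 libraries 68. Deviations of samples with the same replicate number correlated little (between -0.0415 and 0.103 over 66 pairs of groups). Over the 12 pairs within a condition the range was -0.0217 to 0.0891. Deviations were taken on the TMM scale, so shifts of a whole library could not be seen and pairing is not excluded. The replicate block was 1 term shared by all groups, so it could not take up a shift of a single condition. The replicate block gave 72, 35, 22, 29, 131, 138, 0 and 27 calls in the order of the leave-one-out ranges, and it changed no call among the 50 genes that the naming rule gives. No gene of those 50 that was called in the main fit or in an alternative had opposite signs between them. Sign changes of genes called in neither were not counted. Other genes named in the text were not followed through the alternatives.

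The choice of members was less firm: 51 of the 150 remained with a CPM minimum of 1, 109 with 10, 105 with TMM, and 95 to 121 without 1 siControl library (95 without 3 h replicate 1). For the other settings of the rule, 136 to 149 remained. Reads at 6 h limit genes such as CITED4.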

Other observations

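Several of the 72 called members encode proteins that work with RNA polymerase II. The genes of this paragraph were picked out after their values were seen and form no list of the analysis, so nothing is said of any group. Beside LEO1 they include IWS1, an elongation factor, at -0.48 (SE 0.0824, edgeR adjusted p = 5.12e-08). GTF2B, the general initiation factor TFIIB, was at -0.47 (SE 0.141, edgeR adjusted p = 0.00470). ELOF1, an elongation factor, was at -0.45 (SE 0.109, edgeR adjusted p = 0.000278), PCIF1, which methylates adenosine next to the cap, at -0.32 (SE 0.1004, edgeR adjusted p = 0.00640), and CTDP1, a phosphatase of the polymerase tail, at -0.32 (SE 0.125, edgeR adjusted p = 0.0399). ELOF1 changed by -0.27 and then by -0.72 on the log2 scale, while IWS1 changed by -1.38 and then by -1.87. GOLPH3 was at -0.52 (SE 0.0844) and MGAT2, a glycosylation enzyme from a single-exon gene, at -0.51 (SE 0.101), both called. EIF4E, the cap-binding factor of translation, was called at -0.26 (SE 0.0865, edgeR adjusted p = 0.0131).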
